A study of Homo sapiens with 6 samples.

Results

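The genes described here are 58 nuclear pore and nuclear transport genes, chosen by gene symbol. They comprise 28 nucleoporins, 21 transport carriers (importins and exportins) and 9 mRNA export factors. All 58 were found among the 61860 gene rows of the count table, none shared its symbol with another row, and all 58 were among the 18740 genes with enough reads to be tested. RNA was sequenced from 786-O cells, a kidney cancer line (clear cell carcinoma) without working VHL, the tumour suppressor that marks hypoxia-inducible factors for destruction. The cells stably expressed either a short hairpin RNA (shRNA) that targets METTL3, the enzyme subunit that places N6-methyladenosine (m6A) on mRNA, or a control shRNA, and each group held 3 libraries (A to C). The comparison addresses how loss of METTL3 alters transcript levels, as part of a study of m6A in kidney cancer in which L-2-hydroxyglutarate is high. No hairpin sequence is given, nor whether the 3 libraries of each group were separate cultures or clones, so p-values reflect only how these libraries vary, which may be technical variation.

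Nuclear pores are channels through the nuclear envelope, built from nucleoporins: stacked scaffold rings anchored in the membrane, disordered proteins that fill the channel, filaments on the cytoplasmic side and a basket on the nuclear side. Carriers of the importin beta family take proteins through the channel, with importin alpha as an adaptor for many of them, and the small GTPase Ran sets the direction. Messenger RNA leaves by another route, in which the THO complex and the adaptor ALYREF load the receptor NXF1 and its partner NXT1 on finished transcripts. The m6A reader YTHDC1 is known to pass methylated mRNA to NXF1.

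METTL3 checks the labels. It had 11.3, 9.84 and 11.4 CPM (counts relative to the scaled library total) in the METTL3 shRNA libraries, against 37.2, 38.1 and 37.6 CPM in the control libraries. All METTL3 shRNA libraries lay far below all control libraries, and METTL3 fell by 71.2% (log2 fold change -1.80, edgeR adjusted p = 1.45e-07). Totals ran from 100534896 to 101473388 counts in METTL3 shRNA libraries and from 102420127 to 103624456 in control libraries. Protein-coding transcripts of the mitochondrial genome took 5.78 to 6.53% of the counts in METTL3 shRNA libraries and 3.00 to 3.37% in control libraries. Their part in the results below was not tested. Of 7 renal epithelial line markers 6 exceeded 1 CPM, with LRP2 near 0, and they summed to 2945 to 4044 CPM in METTL3 shRNA libraries and 1840 to 2345 CPM in control libraries, mostly from VIM; their part in the results was not tested either. Of the markers of other cell types, 0 of 5 leukocyte genes, 0 of 3 endothelial genes and 1 of 4 fibroblast genes (COL1A1) exceeded 1 CPM, and CD3E was at 0 counts in all libraries.

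Of the 58 genes, 3 were higher and 14 were lower with METTL3 shRNA, and 41 did not pass the test (edgeR quasi-likelihood test with p adjusted over all genes tested by the Benjamini-Hochberg method, threshold 0.05). The higher genes were THOC6, IPO9 and XPO7. The lower genes were NUP160, NUP188, RANBP2, NUP42, RAE1, KPNA1, KPNA3, KPNA4, IPO4, XPO4, NXF1, ALYREF, THOC2 and THOC7. The background is high, because 33.5% of all tested genes passed in either direction, 16.5% higher and 16.9% lower. Among the 11254 genes at least as abundant as the lowest of the 58, otherwise unmatched to them, 19.3% were higher and 21.0% lower. The 14 lower genes are 24.1% of the 58, near that share. The 3 higher genes are 5.17% of the 58, a lower share than in the background, and that difference was not tested. The median log2 fold change of the 58 was -0.02, against -0.0030 over all genes tested. Their median absolute log2 fold change was 0.16, against 0.20 in the 11254 genes. The METTL3 shRNA libraries lay wholly above the control libraries for 7 genes and wholly below them for 19, together 44.8% of the 58, against 47.4% of all genes tested. Of the 11254 genes named above 2791 lay wholly above and 3214 wholly below. This is a larger share than in the 58, and that difference was not tested. In bulk RNA, fewer cells with a transcript and less of it per cell cannot be told apart.

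**Figure D1:**
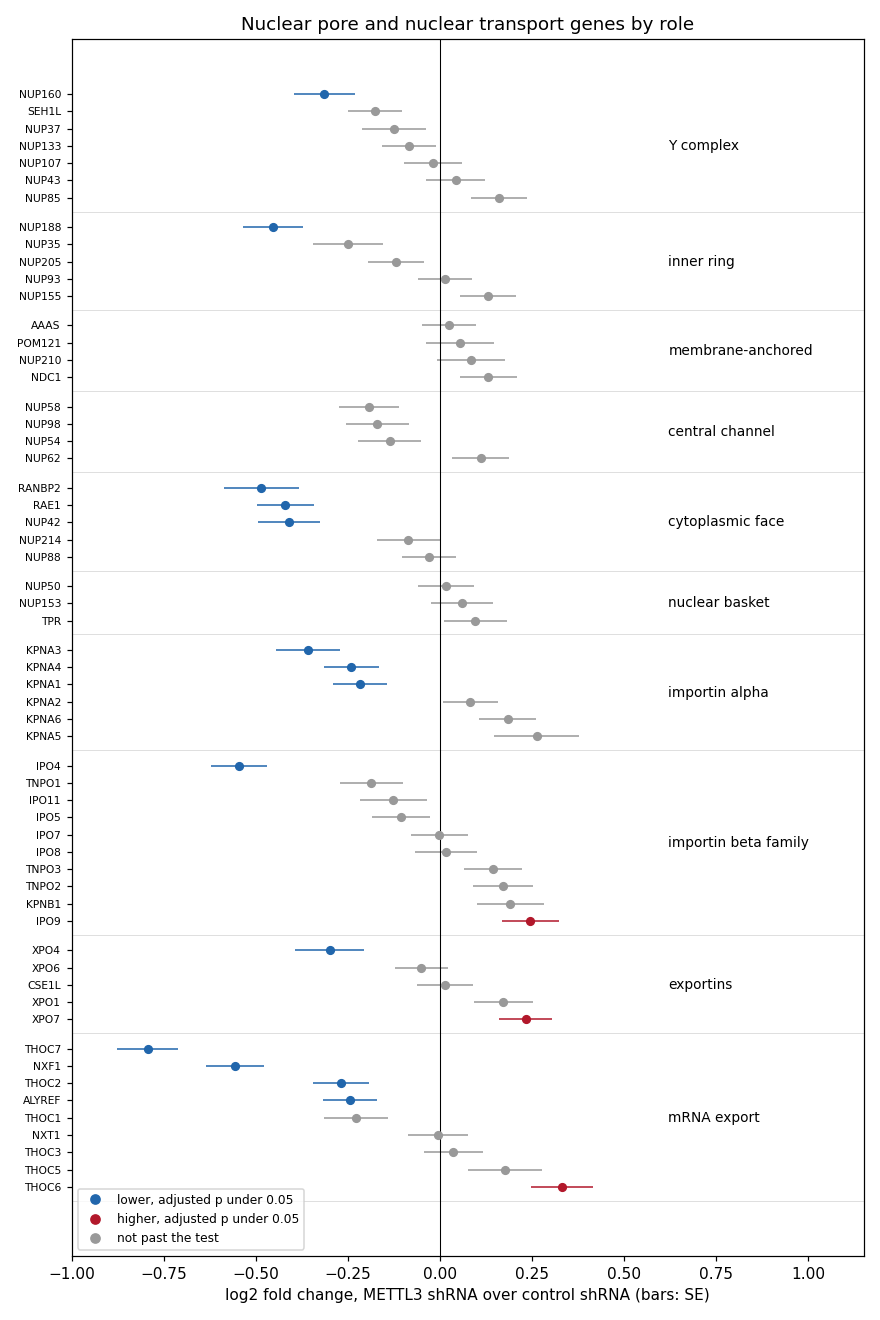
Log2 fold change of METTL3 shRNA over control shRNA (x axis) for each of the 58 genes (y axis), grouped by role, with bars for the standard error from 3 libraries per group. The 14 lower genes include 3 of 5 at the cytoplasmic face, 3 of 6 importin alpha genes and 4 of 9 mRNA export genes. Over all genes tested 16.9% were lower, and these small groups were not tested against that share. The nuclear basket and the membrane-anchored genes sit between 0.02 and 0.13.

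8 of the 17 genes that passed did so under all 16 alternative analyses: NUP188, RANBP2, NUP42, RAE1, KPNA3, IPO4, NXF1 and THOC7. Calls for the other 9 depended on single libraries or settings. Leaving out METTL3 shRNA library B gave 1 higher and 9 lower genes, and 1 gene was higher when control library B or C was left out. When libraries were scaled by their totals only, the median of all genes was -0.11, with 1 higher and 22 lower among the 58, and 1985 higher and 4727 lower over all genes. METTL3 shRNA library A was the lowest of its group for 32 of the 58 genes, B for 15 and C for 11. Control libraries A, B and C were the lowest of theirs for 21, 14 and 23. The same count was not made over all genes tested.

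Promoter sequences are shown first for NXF1 and IPO4, the lower genes with the largest changes for which a promoter entry was at hand, and for THOC6, the gene with the largest rise. Each runs from 250 bases before to 50 bases after the RefSeq start on build GRCh38.p14, in the direction of transcription. NXF1 lies at chr11:62805391-62805690 on the minus strand, IPO4 at chr14:24188767-24189066 on the minus strand and THOC6 at chr16:3023785-3024084 on the plus strand. Capitals mark matches to the motifs searched, none of which overlaps another here.
NXF1: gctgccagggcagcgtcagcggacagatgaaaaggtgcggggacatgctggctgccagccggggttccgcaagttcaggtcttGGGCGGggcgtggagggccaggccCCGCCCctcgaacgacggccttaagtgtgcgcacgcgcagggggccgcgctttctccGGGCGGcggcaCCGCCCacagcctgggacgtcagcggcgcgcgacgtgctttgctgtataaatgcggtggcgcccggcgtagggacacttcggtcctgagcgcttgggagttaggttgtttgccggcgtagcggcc
IPO4: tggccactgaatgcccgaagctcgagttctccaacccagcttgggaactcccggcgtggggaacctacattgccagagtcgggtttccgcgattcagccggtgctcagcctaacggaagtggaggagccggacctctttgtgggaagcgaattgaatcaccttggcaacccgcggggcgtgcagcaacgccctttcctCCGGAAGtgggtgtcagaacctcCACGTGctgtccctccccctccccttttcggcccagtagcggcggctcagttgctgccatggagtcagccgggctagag
THOC6: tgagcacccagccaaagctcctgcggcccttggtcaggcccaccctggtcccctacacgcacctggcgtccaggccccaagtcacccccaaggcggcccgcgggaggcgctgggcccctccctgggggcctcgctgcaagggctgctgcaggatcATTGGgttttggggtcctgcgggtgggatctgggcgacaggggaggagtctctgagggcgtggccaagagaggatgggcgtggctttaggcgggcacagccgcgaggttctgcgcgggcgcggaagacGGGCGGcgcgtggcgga
In these windows NXF1 holds 4 GGGCGG matches (the letters bound by SP and KLF factors), IPO4 an ETS match (CCGGAAG) 52 bases before the start and an E-box (CACGTG) 29 bases before it, and THOC6 a CCAAT match, read on the other strand, and 1 GGGCGG match. A match is only a stretch of letters, and binding was not measured.

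Windows were at hand for 52 of the 58 genes, 66 windows in all, and 8 motifs were searched on both strands. Nearby starts of a gene give overlapping windows, so a match can count more than once. The background was all promoters of the table, not matched for base content or expression. KPNA4, KPNA5, KPNB1, NUP43, THOC7 and XPO7 had no entry. The ETS letters CCGGAAG stood in 30.3% of the 66 windows and in 10.3% of all 35116 promoters of the table. The E2F letters TTCCCGC stood in 19.7% of the windows, against 6.55% of all promoters, the NRF1 core GCGCATGC in 7.58%, against 3.05%, and CACGTG in 10.6%, against 7.26%. CCAAT stood in 43.9% of the windows, against 34.6%, GGGCGG in 56.1%, against 45.0%, and TTTGAA in 21.2%, against 15.2%. Counted by gene, TTTGAA occurred in 12 of 38 genes that did not pass, 0 of 12 lower genes and 0 of 2 higher genes. The NRF1 core occurred in 5, 0 and 0 of these. Over all gene symbols with a promoter the shares were 18.2% for TTTGAA and 3.68% for the NRF1 core. These splits were not tested.

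The YY1 letters ATGGCGGC stood in 13.6% of the windows, against 3.00% of all promoters. Counted by gene, the shares were 15.4% of the 52 genes and 3.67% of all gene symbols with a promoter. They were found in 5 of 12 lower genes with a window, 0 of 2 higher genes and 3 of 38 genes that did not pass (IPO8, NDC1 and NUP88). The lower genes are printed because they hold most of these matches, with 10 bases on each side and the match in capitals.
NUP160: cggcgggaagATGGCGGCggcgggagcc
NUP188: gcgcgcgaagATGGCGGCggccgccggc
RAE1: gtcgttaaccGCCGCCATggctcccgca
THOC2: tgagaggaagATGGCGGCcgcggctgtg
XPO4: agagaccatgATGGCGGCggcgctgggg
On GRCh38.p14 these stretches are chr11:47848301-47848328 (NUP160, minus strand), chr9:128947710-128947737 (NUP188, plus strand), chr20:57351448-57351475 (RAE1, plus strand), chrX:123733005-123733032 (THOC2, minus strand) and chr13:20902718-20902745 (XPO4, minus strand). In RAE1 the match reads on the other strand, 84 bases before the start. In NUP160, NUP188, THOC2 and XPO4 it begins at positions 33, 22, 31 and 12, counting the start as 1 (for XPO4, the first start listed). In these genes the match thus lies after the start, in the transcribed sequence, as it also does in NDC1 and NUP88. Whether the letters there belong to coding sequence rather than to a regulatory site was not tested. The motifs were chosen with the fold changes known, and the background promoters were not matched, so these shares are a description.

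Of the 28 nucleoporins 0 rose, 5 fell and 23 did not pass the edgeR test, with a median absolute log2 fold change of 0.12. The 5 that fell are 17.9% of the 28, near 16.9% of all genes tested and 21.0% of equally abundant genes. No nucleoporin rose, against 16.5% and 19.3% of those genes, a difference that was not tested. The 5 lower ones were spread over the scaffold (NUP160 and NUP188) and the cytoplasmic face (RANBP2, RAE1 and NUP42). In the Y complex, the outer scaffold ring of the pore, 1 of 7 genes fell. NUP160, at chr11:47778087-47848555 (gene positions are on GRCh38, from GENCODE 29), had 32.4, 36.8 and 36.7 CPM in METTL3 shRNA libraries and 40.8, 43.9 and 46.9 CPM in control libraries. Its groups did not overlap, and it fell by 19.5% (edgeR log2 fold change -0.31, SE 0.08, adjusted p = 0.0112). The other 6 (NUP107, NUP133, NUP85, NUP37, NUP43 and SEH1L) had log2 fold changes from -0.18 (SEH1L) to 0.16 (NUP85) and did not pass.

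In the inner ring, the scaffold layer against the membrane, NUP188 fell and its paralogue NUP205 did not pass. NUP188, at chr9:128947699-129007096, had 70.4, 74.2 and 74.1 CPM in METTL3 shRNA libraries and 96.0, 93.4 and 110 CPM in control libraries. Every METTL3 shRNA library was below every control library, and the gene fell by 27.0% (log2 fold change -0.45, SE 0.08, edgeR adjusted p = 0.00118). It shares 3.53% of its exon bases with a gene on the same strand and 0.76% with SH3GLB2 on the other, which was higher (log2 fold change 0.61). NUP205 averaged 52.7 ± 3.84 CPM and 57.2 ± 0.57 CPM in the METTL3 shRNA and control libraries (SD, n = 3 each; log2 fold change -0.12). Its groups did not overlap either, but only narrowly: the highest METTL3 shRNA library had 56.59 CPM and the lowest control library 56.61 CPM. NUP205 and NUP35 were called lower when libraries were scaled by size alone. Within each library the log2 ratio of NUP188 to NUP205 was lower in METTL3 shRNA cells by 0.33, with means of 0.47 and 0.80 in METTL3 shRNA and control libraries. NUP35, with a log2 fold change of -0.25 and edgeR adjusted p = 0.0564, was the gene closest to the threshold on the outside, followed by THOC1 at 0.0596. For NUP35 too every METTL3 shRNA library was below every control library. NUP93 and NUP155 did not pass.

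At the cytoplasmic face, where exported mRNA is stripped of its export factors, 3 of 5 nucleoporins fell. RANBP2, the large filament protein that binds Ran and acts as a SUMO ligase, had 99.0, 121 and 126 CPM in METTL3 shRNA libraries and 151, 153 and 181 CPM in control libraries. RAE1, an mRNA export factor that binds NUP98, had 70.0, 63.8 and 71.9 CPM in METTL3 shRNA libraries and 88.4, 89.8 and 97.0 CPM in control libraries. NUP42, a partner of the export factor GLE1, had 27.1, 25.1 and 27.8 CPM in METTL3 shRNA libraries and 32.6, 38.6 and 35.2 CPM in control libraries. In all 3 genes the highest METTL3 shRNA library stayed below the lowest control library. RANBP2 fell by 28.6% (log2 fold change -0.49, SE 0.10, edgeR adjusted p = 0.00315), RAE1 by 25.2% (-0.42, SE 0.08, 0.00144) and NUP42 by 24.7% (-0.41, SE 0.08, 0.00261). NUP214 and NUP88, which form a subcomplex at this face, had log2 fold changes of -0.09 and -0.03 and did not pass.

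RANBP2 at chr2:108719481-108785811 has near-identical copies, the RGPD genes, and reads could be split among them. The 7 RGPD genes in the table summed to 102 ± 7.42 CPM in METTL3 shRNA libraries and 112 ± 6.63 CPM in control libraries, and these groups overlapped. RANBP2 and its copies together summed to 218 ± 21.8 CPM and 273 ± 22.0 CPM in the METTL3 shRNA and control libraries, without overlap; RANBP2 is part of this sum, and the part of read splitting in its fall was not tested. RAE1 lies at chr20:57351010-57379211 and overlaps no other annotated exon. NUP42 lies at chr7:23181827-23201011, where 13.0% of its exon bases are shared with a gene on the other strand.

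**Figure D2:**
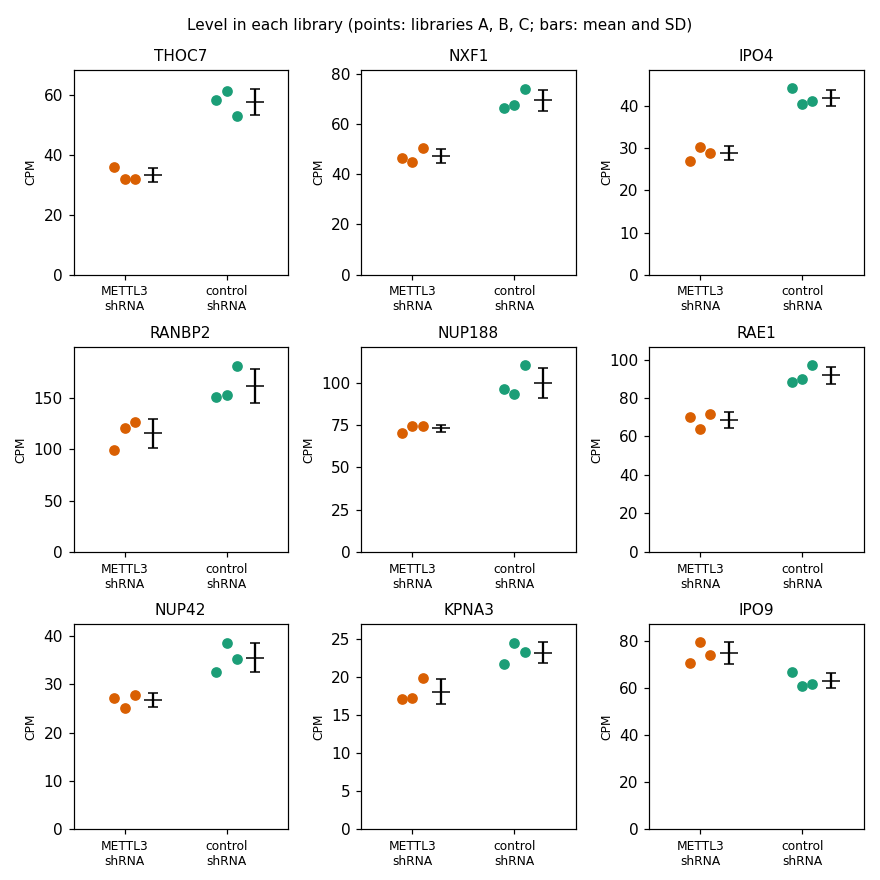
Level in CPM (y axis, from 0) of 9 genes that passed the test in METTL3 shRNA libraries (left in each panel) and control libraries (right), with a point per library and the mean and SD beside them. In the 8 lower genes every METTL3 shRNA point lies below every control point, and in IPO9 every METTL3 shRNA point lies above.

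Of the 4 membrane-anchored nucleoporins, the 4 of the central channel and the 3 of the nuclear basket, 0 passed under edgeR, and 1 (NUP58) had an unadjusted p under 0.05. Of the membrane-anchored genes NDC1, a transmembrane anchor, came closest, with 22.0, 23.8 and 22.1 CPM in METTL3 shRNA libraries and 19.6, 21.5 and 20.8 CPM in control libraries. These groups did not overlap, but the difference did not pass (log2 fold change 0.13, edgeR adjusted p = 0.211). In the central channel NUP58, which fills it together with NUP54 and NUP62, had 65.9, 71.4 and 77.1 CPM in METTL3 shRNA libraries and 76.8, 82.6 and 85.5 CPM in control libraries. Its highest METTL3 shRNA library just exceeded its lowest control library, and edgeR gave an adjusted p of 0.0834 for a log2 fold change of -0.19. In the basket TPR, which forms its filaments, had 103, 120 and 98.6 CPM in METTL3 shRNA libraries and 101, 96.7 and 104 CPM in control libraries, with full overlap and edgeR adjusted p = 0.417. DESeq2 and limma-voom likewise called 0 of these genes, and scaling by library size alone called 2 central channel genes lower. POM121 cannot be fully separated from its copy POM121C: POM121 averaged 152 ± 15.1 and 147 ± 13.4 CPM, and POM121C 104 ± 9.27 and 107 ± 8.02 CPM, in METTL3 shRNA and control libraries.

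Among the carriers, 2 of 21 rose, 5 fell and 14 did not pass. Carriers that fell are 23.8% of the 21, against 16.9% of all genes tested and 21.0% of equally abundant genes. Those that rose are 9.52%, against 16.5% and 19.3%, and these differences were not tested. The importin alpha genes, adaptors that recognise the classical nuclear localisation signal, divided: KPNA3, KPNA4 and KPNA1 fell, and KPNA2, KPNA5 and KPNA6 had positive fold changes that did not pass. KPNA3 had 17.1, 17.3 and 19.9 CPM in METTL3 shRNA libraries and 21.7, 24.5 and 23.3 CPM in control libraries. KPNA4, of the same subfamily as KPNA3, had 86.3, 88.0 and 95.3 CPM in METTL3 shRNA libraries and 107, 110 and 102 CPM in control libraries. KPNA1 had 87.5, 92.6 and 95.8 CPM in METTL3 shRNA libraries and 105, 111 and 105 CPM in control libraries. All 3 were without overlap between the groups. KPNA3 fell by 21.9% (log2 fold change -0.36, SE 0.09, edgeR adjusted p = 0.00729), KPNA4 by 15.4% (-0.24, SE 0.07, 0.0253) and KPNA1 by 13.9% (-0.22, SE 0.07, 0.0366, the gene just inside the threshold). KPNA1 shares 16.3% of its exon bases with AC083798.2 on the other strand, which did not pass. KPNA6 and KPNA5 were wholly above the control libraries. In METTL3 shRNA and control libraries KPNA6 averaged 87.0 ± 6.62 and 76.6 ± 1.24 CPM and KPNA5 4.55 ± 0.36 and 3.79 ± 0.19 CPM, with edgeR adjusted p of 0.0808 and 0.098. The KPNA4 call was lost without METTL3 shRNA library A or B or control library A or B (adjusted p 0.0624 to 0.0975), and the KPNA1 call without any of these or control library C (0.0669 to 0.132). Without METTL3 shRNA library A or B or control library A or B, only 1 importin alpha gene (KPNA3) was lower.

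Per transcript length, the importin alpha pool was mostly KPNA2. In deposited FPKM (fragments per transcript length and sequencing depth), KPNA2 made up 67.0 ± 1.32% of the summed importin alpha signal in METTL3 shRNA libraries and 61.8 ± 0.42% in control libraries. KPNA4 made up 11.8 ± 0.34% in METTL3 shRNA libraries and 14.9 ± 0.45% in control libraries, KPNA1 12.3 ± 0.94% and 14.7 ± 0.48%, and KPNA3 2.24 ± 0.08% and 2.82 ± 0.15%. KPNA6 made up 6.01 ± 0.19% in METTL3 shRNA libraries and 5.19 ± 0.19% in control libraries. These 5 shares were without overlap between groups, each with an exact two-sided permutation p of 0.1, the smallest that 3 against 3 allows (0.12 adjusted over the 6 shares). The KPNA5 shares, 0.65 ± 0.08% and 0.56 ± 0.09% in METTL3 shRNA and control libraries, overlapped (exact p = 0.3). Shares of a sum are tied to each other. On the log2(FPKM + 1) scale the falls were larger than in the count fit, with log2 fold changes of -0.46 for KPNA4 and -0.39 for KPNA1. On that scale the median over all genes was itself -0.09, against -0.0030 in the count fit. The ratio of counts to FPKM was higher in METTL3 shRNA libraries by 0.12 on the log2 scale for KPNA4, without overlap. For KPNA1 it was higher by 0.07, with overlap. KPNA2 had 231 ± 10.2 CPM and 218 ± 6.44 CPM in METTL3 shRNA and control libraries and did not pass.

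In the importin beta family 1 of 10 genes fell and 1 rose. IPO4, known as an importer of histones, had 27.1, 30.4 and 28.9 CPM in METTL3 shRNA libraries and 44.2, 40.6 and 41.3 CPM in control libraries. IPO9, an importer of histones and of actin, had 70.9, 79.9 and 74.1 CPM in METTL3 shRNA libraries and 66.9, 60.8 and 62.0 CPM in control libraries. Both were without overlap, in opposite directions: IPO4 fell by 31.5% (log2 fold change -0.55, SE 0.08, edgeR adjusted p = 2.8e-04), and IPO9 rose (0.25, SE 0.08, 0.0261). KPNB1, the importin beta that pairs with importin alpha, did not pass at 348 ± 22.0 CPM and 305 ± 29.1 CPM in METTL3 shRNA and control libraries. The remaining 7 (IPO5, IPO7, IPO8, IPO11, TNPO1, TNPO2 and TNPO3) had log2 fold changes from -0.19 (TNPO1) to 0.17 (TNPO2). The IPO9 call was lost when libraries were scaled by size alone (log2 fold change 0.14) and without METTL3 shRNA library B or control library B or C (adjusted p 0.0820 to 0.108).

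Some carrier values may depend on how reads are assigned, which was not tested. IPO4, at chr14:24180219-24188964, shares 69.3% of its exon bases with the unnamed gene AL136295.4 on the same strand. AL136295.4 had 0.47 ± 0.20 CPM and 1.00 ± 0.17 CPM in METTL3 shRNA and control libraries and was itself lower (log2 fold change -1.08, edgeR adjusted p = 0.00959). IPO4 also touches REC8 on the other strand, which was lower too (log2 fold change -0.92). For IPO9 the ratio of counts to FPKM, which moves with the transcript length behind the FPKM value, was lower in METTL3 shRNA libraries by 0.28 on the log2 scale, without overlap, and its log2 fold change was 0.38 on the log2(FPKM + 1) scale, against 0.25 in the count fit. Such a shift of over 0.1 was seen in 4 of the 57 genes with enough counts (IPO9, IPO7, THOC1 and KPNA4), or 7.02%, against 10.2% of 10539 genes.

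Of the exportins, XPO4 fell, XPO7 rose and XPO1, XPO6 and CSE1L did not pass. XPO4 had 20.8, 24.2 and 26.2 CPM in METTL3 shRNA libraries and 26.9, 30.1 and 30.7 CPM in control libraries. XPO7 had 57.1, 62.5 and 60.7 CPM in METTL3 shRNA libraries and 51.7, 50.5 and 51.3 CPM in control libraries. The groups did not overlap in either gene, with log2 fold changes of -0.30 (SE 0.09, edgeR adjusted p = 0.0257) for XPO4 and 0.23 (SE 0.07, 0.0245) for XPO7. XPO1, the main exporter of proteins with a leucine-rich export signal, had 83.8 ± 4.85 CPM and 74.4 ± 5.12 CPM, and CSE1L, which returns importin alpha to the cytoplasm, 118 ± 5.62 CPM and 117 ± 6.16 CPM, in METTL3 shRNA and control libraries. XPO4 lost its call without METTL3 shRNA library A or B or control library B or C (adjusted p 0.0645 to 0.0938), and XPO7 without METTL3 shRNA library B or any control library (0.0622 to 0.0865). On the log2(FPKM + 1) scale, where the median over all genes was -0.09, the XPO7 log2 fold change was 0.04.

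Of the 9 mRNA export factors 4 fell, 1 rose and 4 did not pass, and THOC7 and NXF1 had the largest absolute fold changes of the 58 genes. The 4 that fell are 44.4% of the 9, against 16.9% of all genes tested. Among genes at least as abundant as the lowest of the 58, 21.0% fell. The 1 export factor that rose is 11.1%, against 16.5% and 19.3%, and these differences were not tested. THOC7, a subunit of the THO complex, had 35.9, 32.0 and 31.7 CPM in METTL3 shRNA libraries and 58.3, 61.4 and 53.0 CPM in control libraries. NXF1, the receptor that carries mRNA through the pore, had 46.4, 44.7 and 50.3 CPM in METTL3 shRNA libraries and 66.5, 67.4 and 74.0 CPM in control libraries. THOC2, the large scaffold subunit of THO, had 87.8, 89.0 and 94.7 CPM in METTL3 shRNA libraries and 103, 108 and 115 CPM in control libraries. In each gene the METTL3 shRNA libraries all lay below the control libraries, by the widest margin in THOC7. THOC7 fell by 42.3% (log2 fold change -0.79, SE 0.08, edgeR adjusted p = 5.7e-05), NXF1 by 32.0% (-0.56, SE 0.08, 2.8e-04) and THOC2 by 17.0% (-0.27, SE 0.08, 0.0155). ALYREF, the adaptor that joins THO and NXF1, averaged 38.8 ± 1.00 CPM and 46.0 ± 2.38 CPM in METTL3 shRNA and control libraries. It fell by 15.6% (log2 fold change -0.24, edgeR adjusted p = 0.0221). On the log2(FPKM + 1) scale, where the median over all genes was -0.09, its log2 fold change was -0.43. Without METTL3 shRNA library B only 2 of the 4 genes stayed lower: THOC2 and ALYREF lost their calls, as THOC2 did without control library C and ALYREF without control library A or B (adjusted p 0.0575 to 0.0994).

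THOC6, a THO subunit that holds copies of the complex together, had 73.3, 63.4 and 65.8 CPM in METTL3 shRNA libraries and 58.1, 52.9 and 50.1 CPM in control libraries. The groups did not overlap, and THOC6 rose with a log2 fold change of 0.33 (SE 0.08, edgeR adjusted p = 0.0092). Its exons, at chr16:3024027-3027755, share 18.0% of their bases with genes on the other strand, among them HCFC1R1, which had 238 ± 33.9 CPM and 93.4 ± 8.69 CPM in METTL3 shRNA and control libraries (log2 fold change 1.35). The sources used here do not give the strand setting of the counting, so the THOC6 rise is uncertain, and the part of HCFC1R1 reads in it was not tested. THOC7 at chr3:63833870-63863903 and NXF1 at chr11:62792123-62806302, both on the minus strand, overlap no other annotated exon. THOC1, THOC3, THOC5 and NXT1 had log2 fold changes of -0.23, 0.04, 0.18 and -0.01 and did not pass.

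Binding partners and paralogues were compared within libraries. In 10 pairs of related genes, chosen after the fold changes were seen, the log2 ratio was taken within each library. THOC7 over its binding partner THOC5 averaged 0.93 ± 0.11 in METTL3 shRNA libraries and 1.90 ± 0.14 in control libraries, a difference of -0.97. NXF1 over NXT1 averaged 0.99 ± 0.16 and 1.54 ± 0.14 in METTL3 shRNA and control libraries, a difference of -0.55. RAE1 over its partner NUP98 averaged -0.97 ± 0.16 and -0.72 ± 0.07 in METTL3 shRNA and control libraries, a difference of -0.25. The ratios also differed without overlap for KPNA1 over KPNA6 (-0.40), TNPO1 over TNPO2 (-0.36) and NUP188 over NUP205 (-0.33). Each of these 6 had an exact two-sided permutation p of 0.1, the smallest that 3 against 3 allows, and 0.167 adjusted over the 10 pairs, so none could pass. The ratios of THOC6 to THOC5 (0.16), KPNA3 to KPNA4 (-0.12), NUP214 to NUP88 (-0.06) and IPO7 to IPO8 (-0.02) overlapped between the groups. Ratios within a library do not depend on how libraries are scaled.

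**Figure D3:**
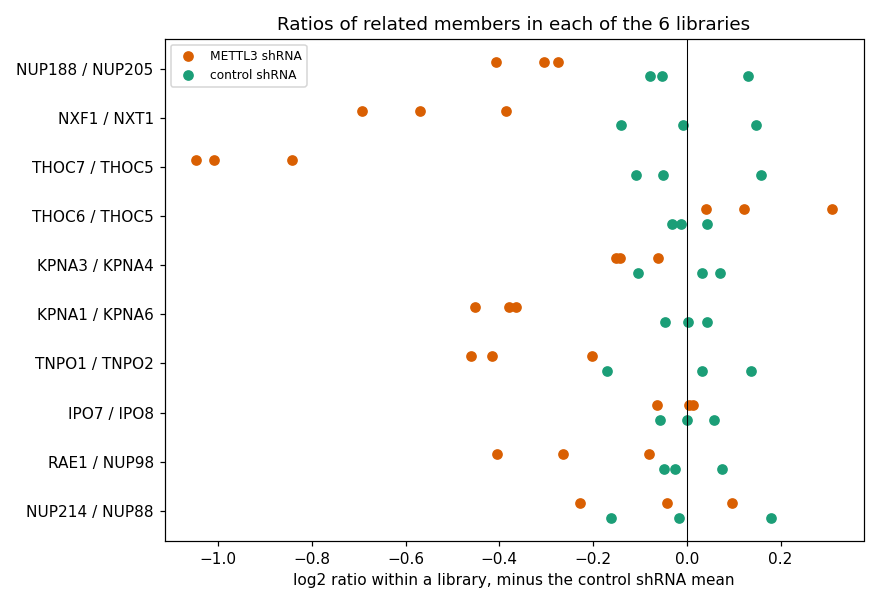
Log2 ratio of 2 related genes within each library, minus the mean of the control libraries (x axis), for 10 pairs (y axis), with METTL3 shRNA libraries drawn above control libraries in each row. THOC7 over THOC5 and NXF1 over NXT1 stand furthest below the control libraries, by 0.97 and 0.55 on average, and IPO7 over IPO8 overlaps.

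Levels can be compared between genes per transcript length. In deposited FPKM of control libraries the order opened with KPNA2 (134 ± 3.13), THOC7 (101 ± 6.44), KPNB1 (86.5 ± 1.58), THOC3 (75.4 ± 4.22) and ALYREF (70.1 ± 2.71) and closed with XPO4 (3.56 ± 0.35) and KPNA5 (1.21 ± 0.20). With METTL3 shRNA, KPNA2 was at 132 ± 8.60 FPKM, KPNB1 at 86.8 ± 6.31, THOC3 at 71.3 ± 6.58, THOC7 at 54.0 ± 2.52 and ALYREF at 51.9 ± 0.96. THOC7, above KPNB1 in control libraries beyond the spread, was thus below KPNB1 in METTL3 shRNA libraries, close to ALYREF. Over the 58 genes the median was 19.9 FPKM in METTL3 shRNA libraries and 21.5 FPKM in control libraries, on a scale where the median log2 difference of all genes was itself -0.09 in log2(FPKM + 1).

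**Figure D4:**
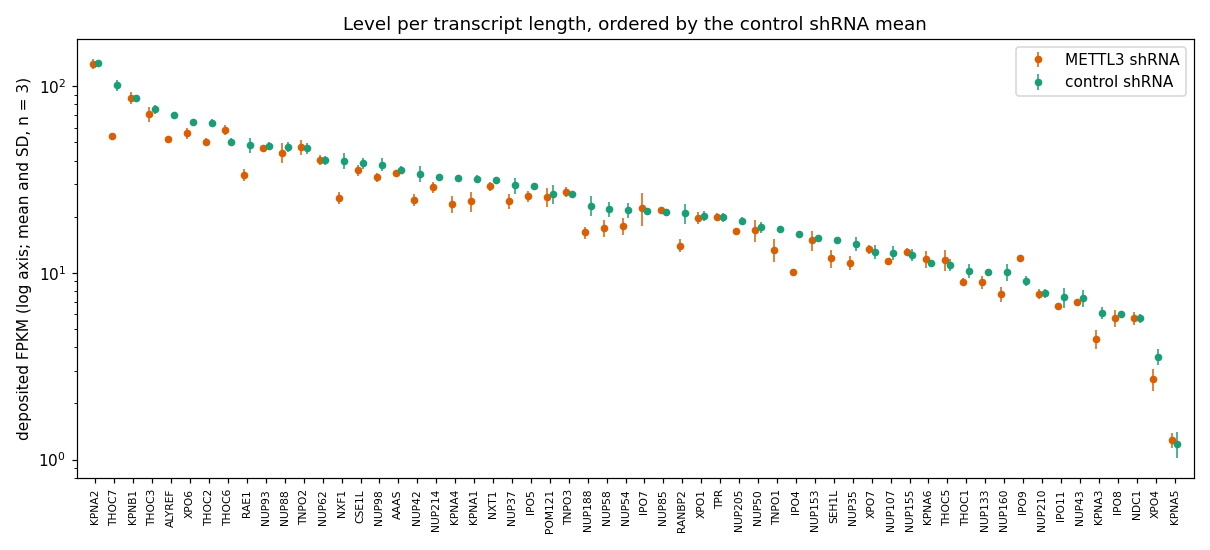
Deposited FPKM (y axis, log scale; mean and SD of 3 libraries) of the 58 genes, ordered along the x axis by the mean of the control libraries, with METTL3 shRNA left of control for each gene. THOC7 shows the widest gap, 54.0 FPKM in METTL3 shRNA libraries against 101 FPKM in control libraries, and KPNA2 and KPNB1 overlap.

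Nuclear transport genes outside the 58 were read from a list of 42, of which 39 were tested; NUP210L, KPNA7 and NXF3 had at most 3, 6 and 0 counts. Of the 39, 2 rose, 13 fell and 24 did not pass, with a median log2 fold change of -0.18. The lower genes are 33.3% of the 39, against 16.9% of all genes tested and 21.0% of those at least as abundant as the lowest of the 58. Of the 17 among them that act in mRNA export 8 fell (47.1%) and 0 rose; these differences in share were not tested. The cap-binding complex, which marks new mRNA for export, was lower in both subunits: NCBP2 had 47.7 ± 1.00 CPM and 61.1 ± 1.35 CPM, and NCBP1 40.9 ± 2.84 CPM and 51.1 ± 2.71 CPM, in METTL3 shRNA and control libraries (log2 fold changes -0.36 and -0.32; edgeR adjusted p = 0.00206 and 0.0079). The export adaptor FYTTD1 had a log2 fold change of -0.37 (adjusted p = 0.00232). The helicases DDX19A, DDX19B and DDX39A of the export pathway fell with log2 fold changes of -0.26, -0.24 and -0.22, and ENY2, of a complex that joins transcription to the pore, with -0.26. MCM3AP, the scaffold of that complex, was also lower, at -0.22.

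GLE1, which activates the helicase DDX19B at the cytoplasmic face and binds NUP42, rose, whereas DDX19B and NUP42 fell. It averaged 29.4 ± 2.39 CPM in METTL3 shRNA libraries and 20.3 ± 0.46 CPM in control libraries, without overlap (log2 fold change 0.53, SE 0.08, edgeR adjusted p = 4.2e-04). SNUPN, the import adaptor of spliceosomal RNPs, had a log2 fold change of 0.34. Among carriers XPO5, the exporter of microRNA precursors, averaged 125 ± 4.94 CPM in METTL3 shRNA libraries and 153 ± 6.23 CPM in control libraries and fell (log2 fold change -0.29). RANBP6 and RANBP17, of the importin beta family, fell with log2 fold changes of -0.38 and -0.40. SENP1 and AHCTF1 completed the lower genes, at -0.29 and -0.21. None of the 7 genes of the Ran cycle passed under edgeR, and 0 had an unadjusted p under 0.05. GLE1, XPO5, FYTTD1, NCBP1 and NCBP2 kept their calls with any 1 library left out, and the other 10 lost it at least once: AHCTF1 and MCM3AP in all 6 such fits, RANBP17 and SENP1 in 5. The count of lower genes was 4 without METTL3 shRNA library B and 7, 6 and 8 without control library A, B or C, and 1 gene was higher without METTL3 shRNA library A or B or control library C.

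The letters GGACT, a frequent sequence at m6A sites, were counted in the transcript with the longest coding sequence of each gene in GENCODE 29. The median was 0.72 per kilobase in the 14 lower genes, 0.89 in the 3 higher genes and 0.81 in the 41 that did not pass, against 0.94 over all coding genes. THOC7, with a transcript of 990 bases, and ALYREF hold none, and neither does SEH1L (1846 bases), which did not pass. Across the 58 genes the Spearman correlation of GGACT density with log2 fold change was 0.29, a description across genes that share their libraries. m6A itself was not measured here.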

How the data were processed

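Per the labels' protocols, 786-O RNA was rid of ribosomal RNA and read as paired ends by DNBSEQ. STAR 2.7.10b, Salmon and GRCh38 are named in the submitters' processing notes, without their roles; the sources used here give neither annotation nor strand setting. The authors deposited whole-number counts and FPKM per gene. Columns named for the control shRNA formed the control group, and the other 3, whose name no label explains, were assigned to METTL3 shRNA by elimination. Column letters are not tied to the labels' replicate numbers, and the blocked fit stands with the alternatives.

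Counts were filtered with filterByExpr, scaled by TMM and tested with edgeR 4.0.16 (quasi-likelihood, R 4.3.3; Benjamini-Hochberg over 18740 genes, threshold 0.05). Standard errors came from the F statistic, and CPM use TMM-scaled totals. Within groups no library repeated another (chi-square over degrees of freedom 16.4 to 62.1). The procedure was tested on simulated counts. Positions came from GENCODE 29 and promoters from RefSeq (GRCh38.p14).

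The members, role groups, other lists and tests were chosen with earlier results of these data known. In each role group values per library are given for up to 3 higher and 3 lower genes or, where none passed, the gene with the smallest p. Alternatives were DESeq2-type size factors, library-size scaling, DESeq2 1.42.0, limma-voom (limma 3.58.1), no filter, a minimum of 1 CPM in 3 libraries, limma on log2 FPKM with pseudocounts 1 and 0.1 (genes of at least 0.5 FPKM in 3 libraries, or all genes for pseudocount 1), a block on the column letter, and leaving out each library.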

Additional observations from a re-analysis of the deposited data

How the results depend on the processing

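No direction among the 58 genes reversed in any of the 16 alternatives where the gene had passed: all 17 called genes kept their sign, and all 17 kept their call with DESeq2-type size factors, DESeq2, limma-voom, the 1 CPM filter and the replicate block on the column letter. Without a filter KPNA1 was lost. The block added NUP58, so that the central channel had 1 lower gene, and gave 3421 higher and 3564 lower over all genes, against 3099 and 3171. Same-letter correlations were -0.02, -0.05 and 0.17 for A, B and C. Library C correlated best with its own letter and A and B did not, so whether the letters pair the libraries is not settled. Scaling by library size alone gave 1 higher and 22 lower genes of the 58 (median log2 fold change -0.14) and 1985 higher over all genes. By role this gave, lower, 2 in the Y complex, 3 in the inner ring, 2 in the central channel and 3 in the importin beta family, with 0 importin beta genes and 0 exportins higher; of the other transport genes 1 was higher and 22 lower. In limma on log2(FPKM + 1) and on log2(FPKM + 0.1), 1588 and 1568 genes were higher over all, the member median was -0.12 and -0.13, and in both fits 2 genes were lower in the Y complex, 2 in the inner ring, 1 in the central channel and 2 in the importin beta family, 0 exportins were higher, and 1 other transport gene was higher and 21 lower. Without the FPKM filter 1027 genes and 1 of the 58 were higher (median -0.12), with 0 Y complex genes and 0 exportins lower, 0 exportins and 0 mRNA export genes higher, and 1 other transport gene higher. The cause of these shifts was not tested. The TMM factors, left out when scaling by library size alone, did not overlap between the groups. They ran from 0.940 to 0.988 in METTL3 shRNA libraries and from 1.00 to 1.07 in control libraries. Leaving out 1 library gave 1 to 4 higher and 9 to 17 lower genes of the 58, a median from -0.05 to -0.02, 2053 to 3265 higher and 1959 to 3324 lower over all genes, and 1 to 3 higher and 4 to 11 lower other transport genes. By role it gave 1 to 2 lower in the inner ring, 0 to 1 in the central channel, 0 to 1 higher and 1 to 3 lower importin alpha genes, 0 to 1 higher and 1 to 2 lower in the importin beta family, 0 to 1 higher and 0 to 1 lower exportins, and 1 to 2 higher and 2 to 5 lower mRNA export genes. The lowest of the 58 genes averaged 4.17 CPM, and counting error and spread between libraries were not separated gene by gene.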
